A study of Mus musculus with 47 samples.

Results

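The hypothalamus and the cerebellum of adult female mice were compared as bulk tissue by RNA sequencing. All 12 hypothalamus libraries were set against all 12 cerebellum libraries of the series, which makes 24 of its 47 libraries, and the stage of the estrous cycle was kept as a covariate. Each region had 3 libraries in proestrus, 3 in estrus, 3 in metestrus and 3 in diestrus. The mice of both regions were C57BL/6J females kept in 12 h light and 12 h dark. They were 91 days old in proestrus, 90 days in estrus, 90 to 91 days in metestrus and 90 to 92 days in diestrus, with the same ages in both regions. The whole region was dissected after decapitation, so each library holds the RNA of every cell type in its piece of tissue. The labels do not say whether libraries of different regions with the same stage and number came from the same mouse, and the p-values below measure the spread between these libraries. The remaining libraries of the series, 11 of neocortex and 12 of hippocampus, serve only to place the genes found here.

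The hypothalamus is a mosaic of small nuclei that control feeding, drinking, body temperature, sleep and reproduction. Its neurons release peptides, some into the blood of the pituitary and some onto receptors elsewhere in the brain, and each nucleus is set up by its own transcription factors. The cerebellum is built from few cell types in a repeated circuit: granule cells, by far its most numerous neurons, send glutamatergic parallel fibres to Purkinje cells, whose GABAergic axons are the output of the cortex, with interneurons and Bergmann glia around them.

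A level is given in CPM, the counts of a gene scaled to the TMM-corrected total of its library, mostly as the lowest, median and highest of the 12 libraries of a region. A gene was called higher or lower when edgeR's glmTreat test placed its difference beyond 2-fold at a Benjamini-Hochberg adjusted p under 0.05 over all 14750 genes tested. The libraries held 1826368 to 8264980 counts in the hypothalamus and 2558644 to 7996961 in the cerebellum. Libraries of the hypothalamus differed more among themselves, with a biological coefficient of variation of 13.9% against 9.27% in the cerebellum. Lars2 took 1.34% to 13.5% of the counts in the hypothalamus and 1.46% to 3.79% in the cerebellum, and the share was highest in the estrus 3 and metestrus 3 libraries of the hypothalamus, at 13.5% and 10.6%, followed by metestrus 2 and proestrus 2 at 8.62% and 8.18%. Without the estrus 3 and metestrus 3 libraries the calls numbered 1572 higher and 971 lower, of 14994 genes then tested.

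Of the 14750 genes tested, 1478 (10%) were called higher and 943 (6.39%) lower in the hypothalamus, 16.4% in all. Against a difference of 0 in place of 2-fold, 5520 genes (37.4%) were higher and 5763 (39.1%) lower, so that 76.5% of the genes differed between the regions. In 2426 genes (16.4%) all 12 hypothalamus libraries lay above all 12 cerebellum libraries, and in 2496 (16.9%) all lay below. The median log2 difference over all genes tested was -0.02. In bulk tissue, fewer cells of a type and less RNA per cell cannot be told apart. The scatter of all tested genes shows where some of the genes described below lie. Counts of list members called are to be read against the 10% of all genes tested that were called higher and the 6.39% called lower. A gene could enter the test through its level in either region alone, so the shares of all lists are descriptions.

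**Figure D1:**
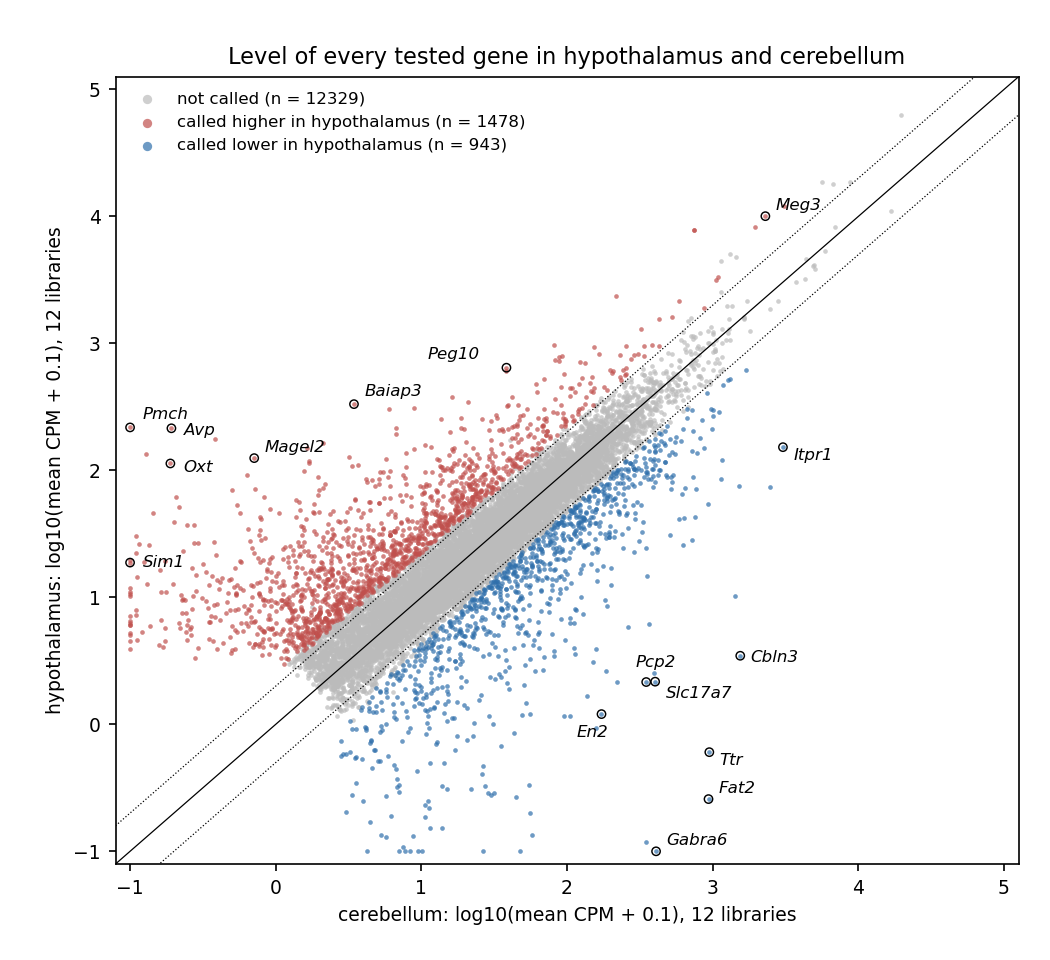
Mean level of each of the 14750 tested genes over the 12 hypothalamus libraries (vertical) and the 12 cerebellum libraries (horizontal), as log10(CPM + 0.1); red and blue points are the 1478 genes called higher and the 943 called lower in the hypothalamus, the solid line marks equal levels and the dotted lines 2-fold. Pmch, Avp and Oxt lie at or near the left edge, where the cerebellum had few or no counts, and Gabra6 and Fat2 lie at or near the bottom.

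Several peptide genes were abundant in the hypothalamus and had few or no counts in the cerebellum. Pmch encodes the precursor of melanin-concentrating hormone, a peptide of lateral hypothalamic neurons linked to feeding and sleep. It had a lowest, median and highest level of 93.6, 204 and 317 CPM in the hypothalamus libraries, against 0 in every cerebellum library. With a floor of 3 counts over the cerebellum libraries together, Pmch was at least 5130-fold higher. The gene lies at chr10:88091072-88092375 (GRCm38) and shares 435 exon bases with Parpbp on the opposite strand. Parpbp reached 68, 132 and 178 CPM in the hypothalamus, against 0, 0 and 0.199 CPM in the cerebellum, and the counts of this pair cannot be told apart without strand.

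Avp encodes vasopressin, which conserves water and raises blood pressure, and Oxt encodes oxytocin, which acts in milk ejection and birth. Both are made in magnocellular neurons of the paraventricular and supraoptic nuclei. Avp had 139.5, 211 and 287 CPM in the hypothalamus (lowest, median, highest) and 0, 0 and 0.377 CPM in the cerebellum, a log2 difference of 10.92 ± 0.21 (SE, adjusted p = 1.7e-26, glmTreat). Oxt had 64.1, 103 and 206 CPM in the hypothalamus and 0, 0 and 0.377 CPM in the cerebellum, a log2 difference of 10.03 ± 0.27 (adjusted p = 1.2e-22, glmTreat). For both genes every hypothalamus library lay far above every cerebellum library, and the highest cerebellum level was under 1 CPM.

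Avp and Oxt are neighbours on chromosome 2 and are read from opposite strands. The windows from 250 bases before to 50 bases after their starts are shown with that of Pmch, since these are the peptide genes with the highest level per kilobase of exon in the hypothalamus, and with that of Gabra6, which had no count in the hypothalamus. They are RefSeq sequence of GRCm38.p6, 5′ to 3′ on the strand of the gene: chr2:130575919-130576218 (Oxt, plus strand), chr2:130582539-130582838 (Avp, minus strand), chr10:88090822-88091121 (Pmch, plus strand) and chr11:42321023-42321322 (Gabra6, minus strand). Capitals mark matches to 5 short motifs searched on both strands: TAATTA of homeodomain factors, CAGCTG and CAGATG of basic helix-loop-helix factors, AGGTCA of nuclear receptors, and TATAAA.
Oxt: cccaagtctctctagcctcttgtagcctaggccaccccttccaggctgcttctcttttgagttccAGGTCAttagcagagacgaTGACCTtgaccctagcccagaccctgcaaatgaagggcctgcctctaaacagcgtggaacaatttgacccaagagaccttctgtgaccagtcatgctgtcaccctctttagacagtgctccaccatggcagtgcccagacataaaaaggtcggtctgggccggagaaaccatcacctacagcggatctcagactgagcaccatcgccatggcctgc
Avp: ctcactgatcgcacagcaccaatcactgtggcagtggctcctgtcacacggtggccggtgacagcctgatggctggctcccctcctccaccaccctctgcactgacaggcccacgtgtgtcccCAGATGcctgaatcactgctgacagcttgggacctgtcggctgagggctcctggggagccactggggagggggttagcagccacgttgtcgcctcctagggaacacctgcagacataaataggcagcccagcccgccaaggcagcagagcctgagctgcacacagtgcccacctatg
Pmch: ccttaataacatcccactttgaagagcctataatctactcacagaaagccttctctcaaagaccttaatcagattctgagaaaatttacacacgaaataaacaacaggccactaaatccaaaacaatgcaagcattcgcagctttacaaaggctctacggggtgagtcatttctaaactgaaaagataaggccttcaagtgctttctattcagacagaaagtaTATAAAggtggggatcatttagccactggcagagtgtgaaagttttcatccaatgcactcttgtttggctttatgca
Gabra6: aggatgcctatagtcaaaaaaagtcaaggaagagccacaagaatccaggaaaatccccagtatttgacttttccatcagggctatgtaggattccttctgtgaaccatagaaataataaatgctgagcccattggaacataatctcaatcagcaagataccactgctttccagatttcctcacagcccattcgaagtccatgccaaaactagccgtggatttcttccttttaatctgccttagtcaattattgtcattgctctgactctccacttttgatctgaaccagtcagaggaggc
The Oxt window held AGGTCA on the plus strand and again, as TGACCT, on the other. The Avp window held CAGATG and the Pmch window TATAAA, and that of Gabra6 held none of the 5. Over the genes of the table with such a window, AGGTCA stood in 11.8% of the 1021 windows of genes called higher, in 13.1% of the 672 of genes called lower, in 11.7% of the 8874 of genes tested and not called, and in 16% of all 27025. In the same order, CAGATG stood in 13.5%, 10.1%, 11.3% and 17.2%, and TATAAA in 9.11%, 7.74%, 6.19% and 14.2%. TAATTA stood in 2.35%, 2.08%, 2.47% and 5.31%, and CAGCTG in 19.9%, 16.8%, 14.3% and 16.1%. The windows of all genes, most of them not tested, had a median GC content of 52.7%, against 60% for genes called higher, 62.7% for genes called lower and 61.3% for those not called.

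The list of hypothalamic peptides held 37 genes of the count tables, of which 17 passed the filter, which asks for about 1.99 CPM, on library totals before TMM scaling, in at least 12 libraries. Of these, 15 were called higher and 1 lower, against 10% and 6.39% of all genes tested. Members that passed mostly did so through the hypothalamus, where they are high, so that share is a description. Beside Pmch, Avp and Oxt, Hcrt encodes the orexins, which keep an animal awake, and Trh the hormone that drives thyrotropin release. Hcrt varied widely in the hypothalamus, at 3.72, 25.6 and 65.1 CPM, and reached at most 0.179 CPM in the cerebellum, where 1 of 12 libraries had any count. Trh had 28.8, 61 and 81.3 CPM in the hypothalamus and 0, 0 and 0.377 CPM in the cerebellum.

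The arcuate nucleus, which senses fat stores, is marked by Pomc, the precursor of alpha-MSH and beta-endorphin, by Cartpt, whose peptide reduces feeding, and by Npy, which stimulates it. Cartpt had 34.2, 46.5 and 55.4 CPM in the hypothalamus and 0, 0 and 0.189 CPM in the cerebellum. Pomc had 41.6, 51 and 118 CPM in the hypothalamus and 0.228, 1.16 and 3.47 CPM in the cerebellum. Neither gene's groups overlapped. Npy was the smallest of the called increases, at 8.79, 18.8 and 33.4 CPM in the hypothalamus and 3.72, 6.1 and 8.83 CPM in the cerebellum. Its groups overlapped by a narrow margin, and it was called higher all the same (log2 difference 1.70 ± 0.16, adjusted p = 7.6e-05, glmTreat). Agrp, the other feeding peptide of the Npy neurons, did not pass the filter and had a mean of 5.18 CPM in the hypothalamus and 0.214 CPM in the cerebellum.

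Peptides that many brain regions share also differed. Sst, for somatostatin, had 54.5, 75.7 and 88.4 CPM in the hypothalamus and 1.61, 2.73 and 13.8 CPM in the cerebellum. Adcyap1, for the stress peptide PACAP, had 52.4, 79.1 and 91.3 CPM in the hypothalamus and 4.28, 6.14 and 7.55 CPM in the cerebellum. Pdyn, for the dynorphins, had 42, 51.3 and 65.4 CPM in the hypothalamus and 0, 0.416 and 1.33 CPM in the cerebellum. In all 3 genes the groups were apart. Tac1 (substance P) and Nts (neurotensin) were called higher as well, with log2 differences of 4.66 and 4.60. Gal (galanin) had 5.6, 9.95 and 15.6 CPM in the hypothalamus and 0, 0 and 0.503 CPM in the cerebellum, and was called higher. Tac2 (neurokinin B), also called higher, had 7.78, 12.4 and 17.3 CPM in the hypothalamus and 0, 0 and 0.228 CPM in the cerebellum.

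The list's exceptions were Cck and Penk. Cck, the precursor of cholecystokinin, was called lower, with 2.97, 7.9 and 15.2 CPM in the hypothalamus and 18.1, 20.2 and 26.4 CPM in the cerebellum (log2 difference -1.35 ± 0.13, adjusted p = 0.011, glmTreat). The call of Cck ended with DESeq2 (adjusted p = 0.059) and without the 6 hypothalamus libraries richest in Lars2 (adjusted p = 0.058, glmTreat). Penk, the precursor of the enkephalins, was not called: it had 43.9, 52.6 and 139.9 CPM in the hypothalamus and 69.7, 75.1 and 80.7 CPM in the cerebellum. Its highest value came from the estrus 3 library of the hypothalamus, in which striatal genes were also high.

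**Figure D2:**
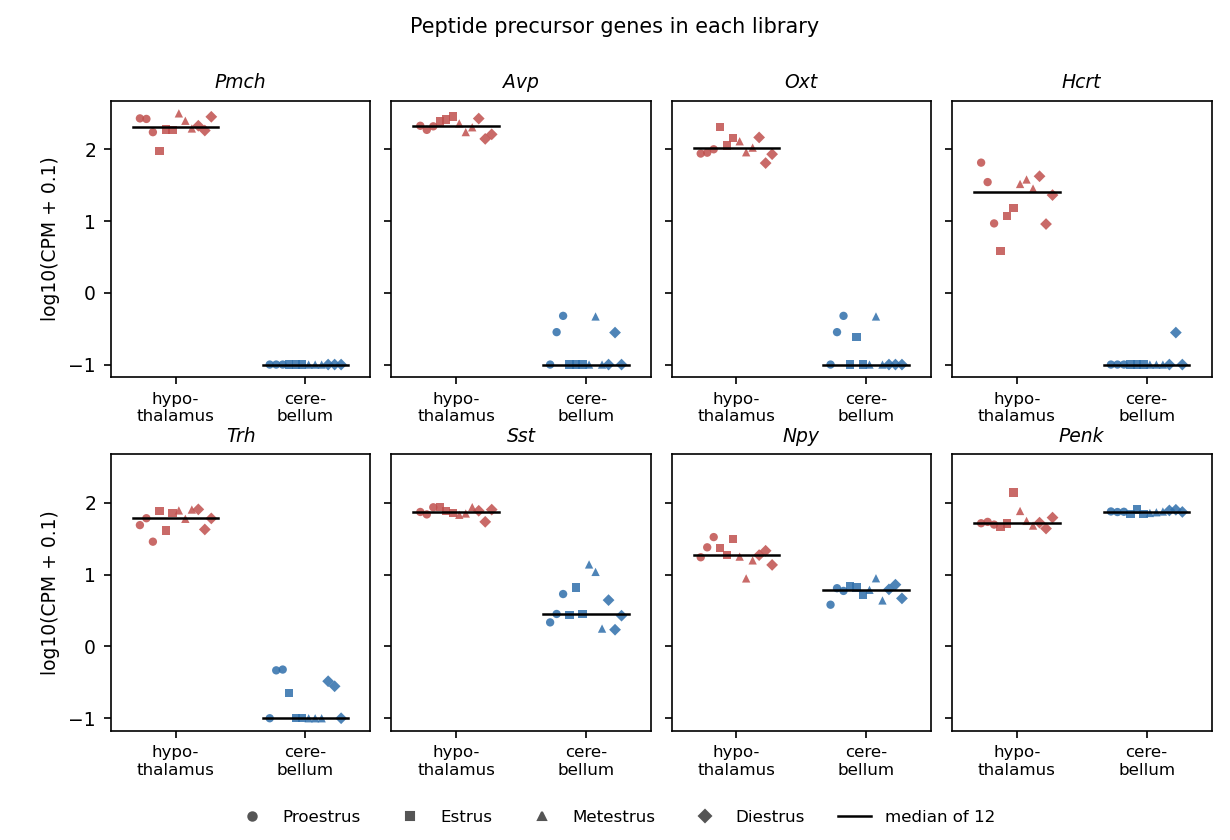
Level of 8 peptide precursor genes in each of the 12 hypothalamus libraries (red, left) and 12 cerebellum libraries (blue, right), as log10(CPM + 0.1), with symbols for the stage and a bar at the median. In Pmch, Avp, Oxt, Hcrt, Trh and Sst every hypothalamus library lies above every cerebellum library, in Npy the groups touch, and in Penk the cerebellum median is higher.

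The members that did not pass the filter were mostly rare peptides. Vip, a peptide of the suprachiasmatic clock, had a mean of 8.42 CPM in the hypothalamus and 0.149 CPM in the cerebellum. Npvf, which restrains the reproductive axis, averaged 4.27 CPM in the hypothalamus and had no count in the cerebellum, and Ghrh, which drives growth hormone release, averaged 1.59 CPM in the hypothalamus and had none in the cerebellum. Crh, the stress hormone precursor, was low in both, at a mean of 1.09 CPM in the hypothalamus and 0.363 CPM in the cerebellum. Nppc, for a natriuretic peptide, ran the other way, with a mean of 1.05 CPM in the hypothalamus and 3.15 CPM in the cerebellum. Ucn, Galp and Npw had no count in either region.

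Of 47 genes for receptors of these and other peptides in the count tables, 33 passed the filter, and 27 of these were called higher and 2 lower (10% and 6.39% of all genes). Here too many members passed through the hypothalamus alone, so the share is a description. Ntsr1, a neurotensin receptor, had 11.2, 14.8 and 17.6 CPM in the hypothalamus and 0, 0 and 0.142 CPM in the cerebellum. Npy2r, the presynaptic receptor for neuropeptide Y and peptide YY, had 22, 26.7 and 31.5 CPM in the hypothalamus and 0, 0.059 and 0.73 CPM in the cerebellum. Calcr, the calcitonin and amylin receptor, had 13.5, 20.8 and 28.7 CPM in the hypothalamus and 0, 0.16 and 0.755 CPM in the cerebellum. Oprk1, the kappa opioid receptor, had 20.2, 29.4 and 40.9 CPM in the hypothalamus and 0, 0.578 and 1.59 CPM in the cerebellum. All 4 were counted in every hypothalamus library and lay above every cerebellum library.

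Among the receptors of feeding circuits, Mc3r, a melanocortin receptor, was 42.3-fold higher and Mchr1, the receptor of melanin-concentrating hormone, 16.5-fold higher. Hcrtr2, an orexin receptor, was 8.63-fold higher, and Npy1r 7.14-fold higher. The leptin receptor gene Lepr had 6.74, 13.3 and 19.2 CPM in the hypothalamus and 2.05, 4.6 and 6.41 CPM in the cerebellum, and was called higher by 2.97-fold. Oxtr, the oxytocin receptor gene, had 6.99, 9.38 and 12.6 CPM in the hypothalamus and 0.413, 0.731 and 1.29 CPM in the cerebellum. Tacr3, the receptor of neurokinin B, was 27.5-fold higher.

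Some receptors were abundant in both tissues. Adcyap1r1, the PACAP receptor, had 331, 369 and 428 CPM in the hypothalamus and 115, 135 and 145 CPM in the cerebellum and was called higher by 2.83-fold. Oprl1, the nociceptin receptor, had 91.3, 94.9 and 110.0 CPM in the hypothalamus and 6.99, 10.6 and 14.2 CPM in the cerebellum. Ntsr2, the astrocytic neurotensin receptor, was not called, at 83.2, 95.2 and 126 CPM in the hypothalamus and 56.3, 65.7 and 72.7 CPM in the cerebellum. The groups of Ntsr2 did not overlap, but its difference stayed below 2-fold.

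Crhr1 and Vipr1 were the receptors called lower. Crhr1, the main receptor of corticotropin-releasing hormone, had 1.6, 4.11 and 7.32 CPM in the hypothalamus and 47.9, 58.1 and 78.1 CPM in the cerebellum, 13.6-fold lower. Vipr1, a receptor of VIP and PACAP, had 0.222, 0.638 and 3.37 CPM in the hypothalamus and 3.19, 5.22 and 7.36 CPM in the cerebellum. The prolactin receptor gene Prlr, which choroid plexus also expresses, had 35.4, 60.3 and 78 CPM in the hypothalamus and 2.23, 19.6 and 32.8 CPM in the cerebellum, a log2 difference of 1.71 ± 0.21. Its lowest cerebellum value came from the metestrus 3 library, which was also lowest in the choroid plexus genes described below, and its call ended with DESeq2 (adjusted p = 0.077).

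Of 16 nuclear receptors for steroids, thyroid hormone and related ligands, 15 passed, with 6 called higher, 4 lower and 5 not called, against 10% and 6.39% of all genes. Esr1, the estrogen receptor alpha gene, had 19.1, 28 and 34.3 CPM in the hypothalamus and 0, 0.543 and 1.7 CPM in the cerebellum, 43.8-fold higher. Pgr, the progesterone receptor gene, was 3.33-fold higher, Thrb, a thyroid hormone receptor gene, 3.44-fold, and Rxrg, a retinoid X receptor gene, 47-fold. Esr2 did not pass the filter and averaged 0.941 CPM in the hypothalamus and 0.0389 CPM in the cerebellum. The 3 estrogen-related orphan receptor genes, which bind no estrogen, were all lower in the hypothalamus: Esrra by 3.01-fold, Esrrb by 9.49-fold and Esrrg by 6.96-fold. The pair of retinoid-related orphan receptor genes split, with Rorb higher by 4.08-fold and Rora, which Purkinje cells need, lower by 4.59-fold.

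Peptides are cut from precursors and stored in dense-core vesicles, and 22 genes of that machinery all passed the filter. Of these, 12 were called higher and 3 lower, with a median log2 difference of 1.28. Baiap3, a Munc13 relative that acts in dense-core vesicle release, had 274, 331 and 407 CPM in the hypothalamus and 0.717, 1.98 and 10.3 CPM in the cerebellum, 101-fold higher. Resp18, a protein of the regulated secretory pathway, was 14.9-fold higher, and Vgf, a precursor of several peptides, 8.26-fold. Pam, the enzyme that amidates peptide ends, was 7.11-fold higher, Scg2, a granin, 4.97-fold, and Qpct, which forms the pyroglutamate end of Trh and others, 10.9-fold.

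The members lower in the hypothalamus were Pcsk6, a proprotein convertase, by 6.68-fold, Cadps2, which primes vesicles in granule cells, by 3.35-fold, and Chgb, a granin, by 2.38-fold. Chgb had 269.9, 304 and 333 CPM in the hypothalamus and 574, 700.1 and 929 CPM in the cerebellum. Cpe, the carboxypeptidase that trims most precursors, was abundant on both sides and not called, at 875, 1179 and 1285 CPM in the hypothalamus and 656, 698 and 802 CPM in the cerebellum. Scg3, which sorts granins to the vesicle, was not called either, at 124, 149.7 and 160.5 CPM in the hypothalamus and 236, 249 and 263 CPM in the cerebellum.

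Most transcription factors that pattern the hypothalamus were close to absent in the cerebellum. Of 38 in the count tables, 25 passed, and 21 were called higher and 1 lower. Most of these passed through the hypothalamus, where they are high, and 8 had no cerebellum count, so the share is a description. Nr5a1, the steroidogenic factor of the ventromedial nucleus, had 13.3, 19.8 and 27.7 CPM in the hypothalamus and no count in the cerebellum, at least 448-fold higher. Sim1, which the paraventricular nucleus needs, had 12.4, 18.6 and 23.2 CPM in the hypothalamus and none in the cerebellum, at least 423-fold higher. Six6, Nkx2-4, Dlx2, Bsx, Vax1 and Dlx5 also had no count in the cerebellum, with lower bounds of 266-fold, 243-fold, 226-fold, 148-fold, 146-fold and 105-fold. Otp, which specifies neuroendocrine neurons, had 16.8, 20.7 and 31.3 CPM in the hypothalamus and 0, 0 and 0.126 CPM in the cerebellum. Isl1, a factor of arcuate neurons, had 20.9, 25.9 and 29.2 CPM in the hypothalamus and 0, 0 and 0.413 CPM in the cerebellum.

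Nkx2-1, which the ventral hypothalamus requires, had 40.4, 53.5 and 66.8 CPM in the hypothalamus and 0.827, 1.72 and 2.61 CPM in the cerebellum, 29.5-fold higher. Foxb1, of the mammillary bodies, had 7.8, 29.5 and 42.1 CPM in the hypothalamus and 0, 0.203 and 0.757 CPM in the cerebellum. Dlx1, of GABAergic forebrain neurons, was 310.2-fold higher and Tbx3, of the arcuate nucleus, 12.8-fold. Fezf1, of the ventromedial nucleus, had 14.4, 18.6 and 23.3 CPM in the hypothalamus and 0, 0 and 0.189 CPM in the cerebellum. Otx2 was the member called lower, with 0, 1.123 and 2.4 CPM in the hypothalamus and 11.2, 16.4 and 22.8 CPM in the cerebellum. Rax and Hmx3 averaged 4.31 and 5.43 CPM in the hypothalamus, with no count in the cerebellum, and did not pass the filter.

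Other genes with wide gaps on the hypothalamic side came from other groups. Irs4, an insulin receptor substrate, had 155, 177 and 202 CPM in the hypothalamus and 0, 0.269 and 0.88 CPM in the cerebellum. Gpr50, an orphan relative of the melatonin receptors found in tanycytes, had 20.4, 28.7 and 45.3 CPM in the hypothalamus and 0, 0 and 0.126 CPM in the cerebellum. Dlx6os1, a long noncoding RNA of the Dlx5 and Dlx6 locus, had 7.08, 10.7 and 14.7 CPM in the hypothalamus and no count in the cerebellum. In total 16 genes had no count in any cerebellum library and 9 had none in any hypothalamus library, and all 25 were called.

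On the cerebellar side, the granule cell genes stood first. All 26 listed genes passed the filter, 24 were called lower in the hypothalamus and 1 higher, against 6.39% and 10% of all genes, with a median log2 difference of -3.47. Gabra6, the alpha6 subunit of the GABA-A receptor made by granule cells, had no count in any hypothalamus library and 350.3, 409 and 489.8 CPM in the cerebellum, at least 6850-fold lower. It lies at chr11:42306437-42321072 (GRCm38). Fat2, an atypical cadherin of parallel fibres, had 0, 0.0889 and 0.781 CPM in the hypothalamus and 752, 936 and 1151 CPM in the cerebellum, a log2 difference of -11.93 ± 0.15 (adjusted p = 1.8e-30, glmTreat), or -12.52 without the metestrus 1 library of the hypothalamus. Cbln3, a secreted cerebellin of granule cells, had 0.843, 3.3 and 6 CPM in the hypothalamus and 1436, 1532 and 1678 CPM in the cerebellum, a log2 difference of -8.79 ± 0.10 (adjusted p = 5.9e-32, glmTreat). The cerebellum libraries lay close together in all 3 genes, far above every hypothalamus library.

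Neurod1, which granule neurons need to survive, had 0, 2.55 and 3.73 CPM in the hypothalamus and 343, 389 and 474 CPM in the cerebellum. Zic1, a zinc finger factor of granule cells, had 27.5, 51.9 and 84.4 CPM in the hypothalamus and 802, 904 and 1188 CPM in the cerebellum. Chn2, a GTPase-activating protein for Rac, was 24.2-fold lower, Grm4, a presynaptic glutamate receptor of parallel fibres, 16.8-fold, and Cbln1 8.32-fold. Snap25, which neurons use for vesicle fusion, was 2.79-fold lower, at 464, 622 and 697 CPM in the hypothalamus and 1594, 1679.5 and 1837 CPM in the cerebellum. The exceptions were Ppfibp1, a liprin, which was 2.96-fold higher, and Kcnk9, a background potassium channel, which was not called, at 19.3, 22.3 and 32.7 CPM in the hypothalamus and 14, 17.8 and 20.5 CPM in the cerebellum.

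The Purkinje cell list gave 29 of 30 genes called lower in the hypothalamus and none higher, with a median log2 difference of -2.97. Pcp2, a G protein regulator of Purkinje and retinal bipolar cells, had 1.11, 2.29 and 2.67 CPM in the hypothalamus and 267, 343 and 434 CPM in the cerebellum, 167-fold lower. Car8, which binds the IP3 receptor, had 5.06, 9.89 and 14.5 CPM in the hypothalamus and 1307, 1393 and 1603 CPM in the cerebellum, 135-fold lower. Itpr1, that receptor, had 135, 148 and 182 CPM in the hypothalamus and 2682, 3056 and 3535 CPM in the cerebellum, 19.99-fold lower. Rgs8 and Homer3, of metabotropic glutamate signalling, were 20.3-fold and 24.5-fold lower. Calb1 and Pvalb, calcium buffers, were 5.09-fold and 61.3-fold lower, and Calb1 kept 109, 141 and 163 CPM in the hypothalamus. The smallest called differences were in Dner and Nefh, at 2.15-fold and 2.2-fold. Leaving out 1 library at a time ended the call of Dner in 3 of 24 fits (adjusted p up to 0.07, glmTreat) and that of Nefh in 4 (up to 0.093). Foxp2 was not called, at 13, 17.7 and 25 CPM in the hypothalamus and 5.03, 8.92 and 14.7 CPM in the cerebellum.

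**Figure D3:**
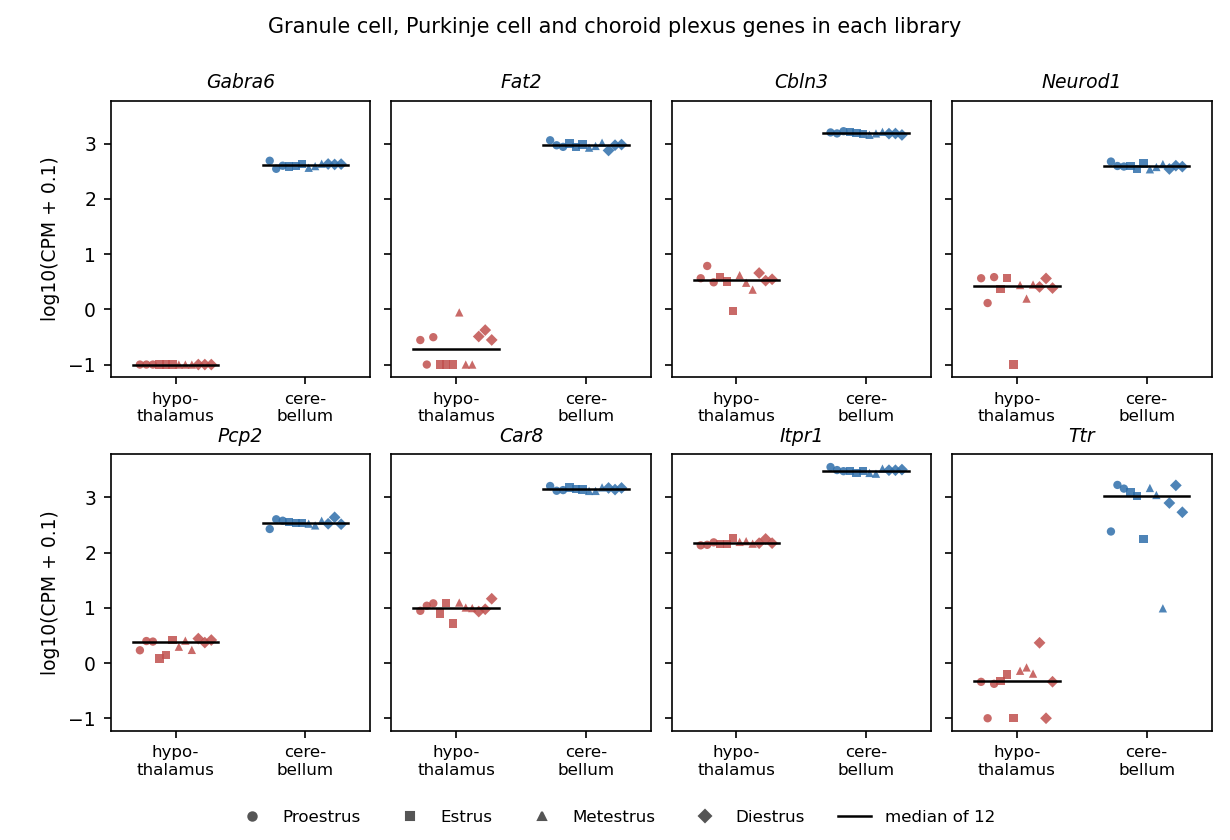
Level of 8 genes in each of the 12 hypothalamus libraries (red, left) and 12 cerebellum libraries (blue, right), as log10(CPM + 0.1), with symbols for the stage and a bar at the median. The granule cell genes Gabra6, Fat2, Cbln3 and Neurod1 and the Purkinje cell genes Pcp2, Car8 and Itpr1 form tight groups in the cerebellum, whereas Ttr, a choroid plexus gene, runs over 9.68 to 1677 CPM there.

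Of 20 genes of Bergmann glia and cerebellar interneurons, 9 were called lower, 3 higher and 8 neither. Slc6a5, the glycine transporter of glycinergic neurons, had 0, 0.143 and 0.543 CPM in the hypothalamus and 25.4, 30.4 and 41.3 CPM in the cerebellum. Tfap2b, a factor of cerebellar GABAergic neurons, had 0, 0 and 0.32 CPM in the hypothalamus and 47.7, 56.7 and 69.9 CPM in the cerebellum. Gdf10, a growth factor of Bergmann glia, had 0.543, 3.74 and 6.87 CPM in the hypothalamus and 142, 157 and 178 CPM in the cerebellum. Hopx was 14.3-fold lower and Kit 5.99-fold lower. Higher in the hypothalamus were Sorcs3, a sorting receptor, by 2.67-fold, Nxph1, a neurexin ligand, by 2.28-fold, and Wif1, a Wnt inhibitor, by 3.61-fold. The call of Nxph1 ended with library size only (adjusted p = 0.26, glmTreat) and without the 6 hypothalamus libraries richest in Lars2 (adjusted p = 0.065, glmTreat). Slc1a3, the glutamate transporter of Bergmann glia and other astrocytes, was not called, at 519, 545 and 629.9 CPM in the hypothalamus and 967, 1046 and 1189 CPM in the cerebellum.

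Of 34 cerebellar transcription factors, 30 passed the filter, and 25 were called lower, 1 higher and 4 neither. Many of these passed through the cerebellum, where they are high, so the share is a description. En2, which patterns the midbrain and cerebellum, had 0, 0.942 and 2.53 CPM in the hypothalamus and 145, 177 and 188 CPM in the cerebellum, 159-fold lower. Eomes, of unipolar brush cells, had 0, 0 and 1.86 CPM in the hypothalamus and 13.6, 27 and 47.5 CPM in the cerebellum. Tlx3 had no count in the hypothalamus and 6.99, 9.46 and 13.6 CPM in the cerebellum, at least 155-fold lower. Neurod2 was 197-fold lower, Mab21l1 23.5-fold, Barhl2 16.8-fold, Etv1 12.7-fold, Zic2 9.69-fold and Pax6 5.34-fold. Insm1, a factor of dividing granule precursors and of neuroendocrine cells, was the member called higher, with 9.3, 10.4 and 19.6 CPM in the hypothalamus and 0.183, 0.63 and 1.14 CPM in the cerebellum. Ebf3 and Hey1 were not called, and Atoh1, which marks granule precursors, had no count in either region.

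The remaining genes with the widest cerebellar excess came from varied families. Cnpy1, a canopy protein, had 0, 0 and 0.213 CPM in the hypothalamus and 288, 355 and 384 CPM in the cerebellum. Mybpc1, a myosin-binding protein known from slow muscle, had no count in the hypothalamus and 38, 48.6 and 54.1 CPM in the cerebellum, at least 816-fold lower. Crtam, an adhesion molecule known from T cells, had 0, 0 and 0.244 CPM in the hypothalamus and 52.5, 56.3 and 68.1 CPM in the cerebellum. Iltifb and Il22, near-identical copies of an interleukin gene between which counting may split reads, had no count in the hypothalamus, while in the cerebellum Iltifb had 21.1 to 30.3 CPM and Il22 8.68 to 12.1 CPM. Hes3, a Notch pathway repressor, and Il20rb, a cytokine receptor chain, had log2 differences of -7.80 and -7.73. Aqp6, a water channel, had 0, 0 and 1.6 CPM in the hypothalamus and 21.5, 31 and 35.1 CPM in the cerebellum.

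Which transmitter a neuron uses is set by synthesis and transport genes, of which 22 of 30 passed, with 7 called higher, 3 lower and 12 neither. The vesicular glutamate transporters went opposite ways. Slc17a6 had 132, 213 and 257 CPM in the hypothalamus and 16.9, 25.5 and 54 CPM in the cerebellum, 7.25-fold higher. Slc17a7 had 0, 1.76 and 8.43 CPM in the hypothalamus and 349, 405 and 444 CPM in the cerebellum, 204-fold lower. Per kilobase of exon, Slc17a6 made up 99% of their summed level in the hypothalamus and 6.69% in the cerebellum, and Slc17a7 0.989% in the hypothalamus and 93.3% in the cerebellum.

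Histamine and dopamine genes were higher in the hypothalamus, which holds the histamine neurons of the tuberomammillary nucleus and several dopamine cell groups. Hdc, which makes histamine, had 23.4, 57.7 and 72.3 CPM in the hypothalamus and 2.89, 5.16 and 7.67 CPM in the cerebellum. Ddc, which makes dopamine and serotonin from their precursors, had 21.1, 30.5 and 36.4 CPM in the hypothalamus and 0.745, 1.75 and 3.79 CPM in the cerebellum. Th, the first enzyme of catecholamine synthesis, had 7.7, 14.2 and 18 CPM in the hypothalamus and 3.31, 4.72 and 8.11 CPM in the cerebellum, and its groups overlapped at the edge. Slc18a2, the vesicular monoamine transporter, was 7.84-fold higher, Ache, acetylcholinesterase, 3.48-fold, and Slc6a11, a GABA transporter of astrocytes, 8.24-fold. The markers of GABA neurons Gad1, Gad2 and Slc32a1 were not called, with log2 differences of -0.91, 1.03 and -0.57. Dbh, for noradrenaline synthesis, had no count in the hypothalamus and a mean of 0.944 CPM in the cerebellum.

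Genes for the subunits of GABA and glycine receptors differed between the regions. Of 22 genes that passed, 11 were called higher, 3 lower and 8 neither, against 10% and 6.39% of all genes. Gabre, the epsilon subunit, had 39.8, 48.1 and 72.4 CPM in the hypothalamus and 0, 0 and 0.796 CPM in the cerebellum. Gabrq, the theta subunit, had 100.3, 116 and 126 CPM in the hypothalamus and 0.179, 1.61 and 3.5 CPM in the cerebellum. Gabra5 was 47.1-fold higher, Gabrg3 37.1-fold, Gabra3 6.82-fold, Gabrg1 5.73-fold, Gabrb1 3.41-fold and Gabra2 3.01-fold. The glycine receptor alpha subunits Glra1, Glra2 and Glra3 were 9.84-fold, 9.61-fold and 37.4-fold higher. Gabra6 was among the genes called lower, and so was Gabrd, the delta subunit of tonic inhibition, which had 0, 0.29 and 11.8 CPM in the hypothalamus and 121, 137 and 157 CPM in the cerebellum. The highest hypothalamus value of Gabrd came from the estrus 3 library. Gabrb2 and Gabbr2 were not called, with log2 differences of -0.97 and -0.59.

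Per kilobase of exon, the alpha subunit genes summed differently in the regions. In the hypothalamus Gabra3 held 32.5% of the alpha total and Gabra5 21.6%, and Gabra6 had no count. In the cerebellum Gabra3 held 1.39%, Gabra5 0.132% and Gabra6 67.5%.

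**Figure D4:**
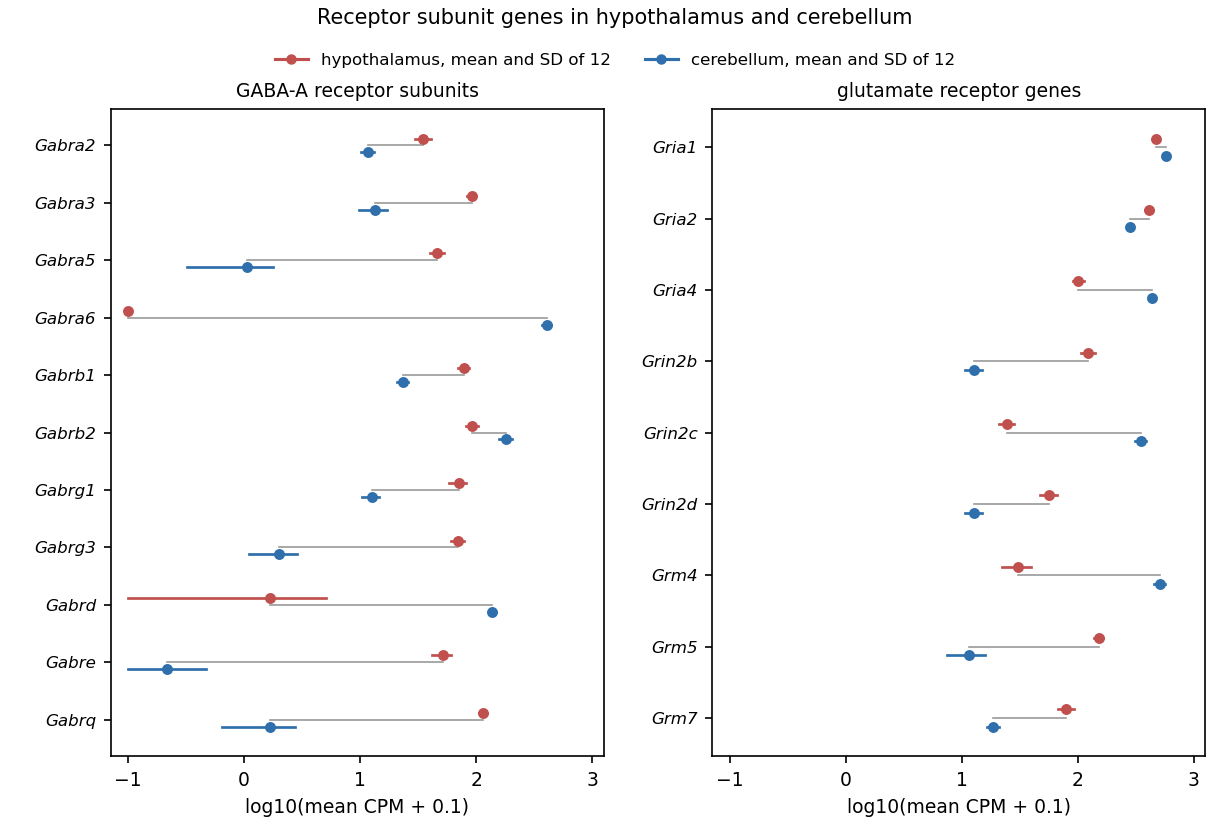
Mean and SD over the 12 hypothalamus libraries (red) and the 12 cerebellum libraries (blue) of 11 GABA-A receptor subunit genes (left) and 9 glutamate receptor genes (right), as log10(mean CPM + 0.1). Gabra6 and Gabrd lie far to the right in the cerebellum, Gabre, Gabrq, Gabra5 and Gabrg3 in the hypothalamus, and Grin2b and Grin2c lie on opposite sides; bars are cut where the mean less the SD falls below 0.

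Among 24 glutamate receptor genes that passed, 8 were called higher, 5 lower and 11 neither, against 10% and 6.39% of all genes. The NMDA receptor subunits split: Grin2b had 98.4, 120.5 and 148 CPM in the hypothalamus and 9.21, 13 and 16.5 CPM in the cerebellum, 9.75-fold higher. Grin2c, the subunit of mature granule cells, had 19.2, 23.7 and 29.9 CPM in the hypothalamus and 283, 354 and 408 CPM in the cerebellum, 14.4-fold lower. Per kilobase, Grin2c made up 24.6% of the GluN2 total in the hypothalamus and 93.7% in the cerebellum, Grin2d 43.2% in the hypothalamus and 2.56% in the cerebellum, and Grin2b 25.2% in the hypothalamus and 0.690% in the cerebellum. Grm5 was 13.1-fold and Grm7 4.22-fold higher. Gria4 was 4.33-fold lower. Gria1 and Gria2 were not called, with log2 differences of -0.31 and 0.54.

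Of 28 receptors for monoamines, acetylcholine and histamine that passed among 44, 20 were called higher and 1 lower, against 10% and 6.39% of all genes. Many of these passed through the hypothalamus, where they are high, so the share is a description. The muscarinic receptors Chrm5, Chrm1 and Chrm3 were 45.3-fold, 26.1-fold and 9.36-fold higher. The serotonin receptors Htr4 and Htr2a were 43.2-fold and 27.4-fold higher. Htr5a was not called, at 8.44, 14.6 and 18.4 CPM in the hypothalamus and 4.2, 6.59 and 7.76 CPM in the cerebellum, but was called higher without the diestrus 1 library of the hypothalamus (adjusted p = 0.029, glmTreat). Drd1 and Drd2, the dopamine receptors of striatal neurons, were 27.1-fold and 12.3-fold higher, and Drd1 peaked at 27.8 CPM in the estrus 3 library of the hypothalamus against a median of 6.12 CPM. Adra1d, an alpha-1 adrenergic receptor, was 11.9-fold lower. The nicotinic subunit Chrnb2 was not called, at 75.9, 82.4 and 90.3 CPM in the hypothalamus and 107, 113 and 125 CPM in the cerebellum.

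Voltage-gated channels moved both ways. Of 58 potassium channel genes that passed, 20 were called higher, 14 lower and 24 neither, against 10% and 6.39% of all genes, with a median log2 difference of 0.25. Kcng4, a silent modulatory subunit, had 0.937, 2.46 and 4.21 CPM in the hypothalamus and 168, 186 and 204 CPM in the cerebellum. Kcnj12 and Kcnk1 were 9.24-fold and 6.37-fold lower. Kcnj5, of G protein-gated channels, was 60.7-fold higher, Kcnt2 35.9-fold and Kcnf1 24.7-fold. Kcnj10, the astrocytic channel, was not called, with a log2 difference of 0.34.

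Of 36 sodium, calcium and HCN channel genes that passed, 13 were called higher, 8 lower and 15 neither. Scn9a, best known from pain neurons, had 58.2, 84.8 and 112 CPM in the hypothalamus and 2.69, 4.24 and 5.52 CPM in the cerebellum. Scn7a, a sodium sensor of the circumventricular organs, had 15.4, 24.7 and 30.2 CPM in the hypothalamus and 0, 0.571 and 2.05 CPM in the cerebellum. Cacna1h, a T-type calcium channel, was 36.7-fold higher. The beta subunit Scn4b was 8.62-fold lower, and the calcium channel partners Cacnb4 and Cacng7 3.73-fold and 3.12-fold. Scn2b and Scn2a were not called, with log2 differences of -1.08 and -0.47, and Scn2b was called lower in 5 of 24 fits without 1 library (adjusted p down to 0.032, glmTreat). Per kilobase, Scn1a, Scn2a and Scn8a made up 17.6%, 32.1% and 15.2% of the sodium channel alpha total in the hypothalamus and 26.6%, 42.2% and 28.9% in the cerebellum.

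Proteins that organise synapses from outside showed a change of member within families. Of 30 that passed, 12 were called higher, 3 lower and 15 neither. Cbln3 and Cbln1 were lower, and Cbln4 and Cbln2 were 17.2-fold and 12.3-fold higher. Per kilobase, Cbln1 and Cbln3 made up 57.6% and 1.37% of the cerebellin total in the hypothalamus and 43.2% and 56.5% in the cerebellum. The neuronal pentraxins split too: Nptx2 was 42.6-fold higher and Nptx1 5.78-fold lower. C1ql2 and Slitrk6 were 48.3-fold and 30.04-fold higher.

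Calcium handling divided evenly, with 6 of 28 genes called higher, 6 lower and 16 neither. Camkv, a kinase-like calmodulin binder of forebrain synapses, had 181, 215 and 260.5 CPM in the hypothalamus and 2.61, 4.3 and 16.6 CPM in the cerebellum. Camk2a, the plasticity kinase, was 4.15-fold higher, Necab2 16.9-fold and Hpcal4 8.41-fold. Camk4, the nuclear kinase of granule cells, had 60.1, 69.6 and 98.6 CPM in the hypothalamus and 643, 758 and 1113 CPM in the cerebellum, and its activator Camkk2 was 5.63-fold lower. Of 16 synaptotagmins, the calcium sensors of vesicle fusion, 5 were called higher, 3 lower and 8 neither. Syt2, a fast sensor, had 24.5, 40.9 and 53.7 CPM in the hypothalamus and 555, 575 and 664 CPM in the cerebellum, and Syt5 had 87.3, 97.3 and 126 CPM in the hypothalamus and 2.89, 5.6 and 9.09 CPM in the cerebellum. Syt1, the sensor of forebrain synapses, was not called, with a log2 difference of 0.28.

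Imprinted genes, which are read from 1 parental copy, were largely on the hypothalamic side. Of 28 that passed among 29 in the count tables, 17 were called higher, 1 lower and 10 neither, against 10% and 6.39% of all genes, with a median log2 difference of 1.87. Their summed level per library was 16900 to 20030 CPM in the hypothalamus and 4567 to 5420 CPM in the cerebellum. Meg3, a long noncoding RNA, had 8481, 10036 and 11055 CPM in the hypothalamus and 1774, 2444 and 2632 CPM in the cerebellum. Magel2, a gene of the Prader-Willi region that peptide neurons need, had 109, 120.2 and 157 CPM in the hypothalamus and 0, 0.563 and 1.84 CPM in the cerebellum. Its neighbour Ndn was 2.85-fold higher, whereas Mkrn3 of the same region was the member called lower, at 0, 0.52 and 1.69 CPM in the hypothalamus and 3.02, 3.92 and 7.85 CPM in the cerebellum.

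Dlk1, a Notch ligand relative, had 267, 300.04 and 368 CPM in the hypothalamus and 1.117, 5.65 and 10.9 CPM in the cerebellum. Asb4, of arcuate neurons, had 41.3, 48.1 and 59.2 CPM in the hypothalamus and 0.372, 1.35 and 2.45 CPM in the cerebellum. Peg3 and Peg10 were 3.66-fold and 16.9-fold higher, Zdbf2 18.7-fold and Nnat 8.58-fold. Gnas, for the stimulatory G protein, was not called, at 1063, 1237 and 1380.1 CPM in the hypothalamus and 588, 624 and 673 CPM in the cerebellum, although no hypothalamus library fell to the cerebellum range.

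None of 16 common reference genes and none of 15 mitochondrially encoded genes was called, with median log2 differences of -0.05 and -0.28. Yet mt-Rnr1 and mt-Rnr2 averaged 18930 and 11900 CPM per kilobase of exon in the hypothalamus and 6965 and 3589 in the cerebellum. The summed mitochondrial level was 46900 to 142800 CPM in the hypothalamus, highest in estrus 3, and 56990 to 84810 CPM in the cerebellum. Clock, immediate early and hedgehog genes were called at shares a little above the 16.4% of all genes. The lists are short, so these shares are not read as a result about the families. Of 19 core clock genes, 1 was called higher, Rorb, and 3 lower: Rora, Cry1 by 2.4-fold and Nfil3 by 3.04-fold. The call of Cry1 ended with DESeq2 (adjusted p = 0.053). Of 23 immediate early genes that passed, 2 were called higher and 3 lower. Sik1 and Nptx2 were the higher ones, Sik1 by 2.52-fold, and Dusp1, Ier2 and Nr4a2 were 4.14-fold, 6.08-fold and 3.23-fold lower. The call of Sik1 ended without the 6 hypothalamus libraries richest in Lars2 (adjusted p = 0.11, glmTreat). Of 12 hedgehog pathway genes that passed, 9 were not called, and the co-receptors Boc and Cdon were 8.63-fold and 3.2-fold lower. No Hox gene of 21 passed the filter, with at most 1.49 CPM summed over all of them in a hypothalamus library and 1.33 CPM in a cerebellum library.

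Glial and vascular lists differed in their calls, against 16.4% of all genes. None of 19 oligodendrocyte and myelin genes and none of 15 endothelial and pericyte genes was called. Mbp, of myelin, had 1189, 1741 and 2896 CPM in the hypothalamus and 2066, 2442 and 2807 CPM in the cerebellum, and the hypothalamus libraries covered the cerebellum range. Of 6 genes of oligodendrocyte precursors, 4 were higher: Pdgfra by 3.39-fold, Gpr17 by 3.55-fold, Cspg4 by 3.07-fold and C1ql1 by 2.4-fold. The call of C1ql1 ended in 15 of 24 fits without 1 library (adjusted p up to 0.1, glmTreat). Pdgfra had 52.1, 65.4 and 70.4 CPM in the hypothalamus and 16.6, 18.6 and 23.2 CPM in the cerebellum. Of 15 astrocyte genes, Agt was 2.46-fold higher and Aqp4 and S100b were 2.56-fold and 4.36-fold lower, and 12 were not called. Of 12 microglia genes that passed, Itgam and Siglech were 2.74-fold and 2.69-fold higher, a share near the background. The call of Siglech ended with DESeq2 (adjusted p = 0.065) and with library size only (adjusted p = 0.055, glmTreat). The microglia sum was 185.7 to 259.6 CPM in the hypothalamus and 117.8 to 153.4 CPM in the cerebellum, without overlap.

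**Figure D5:**
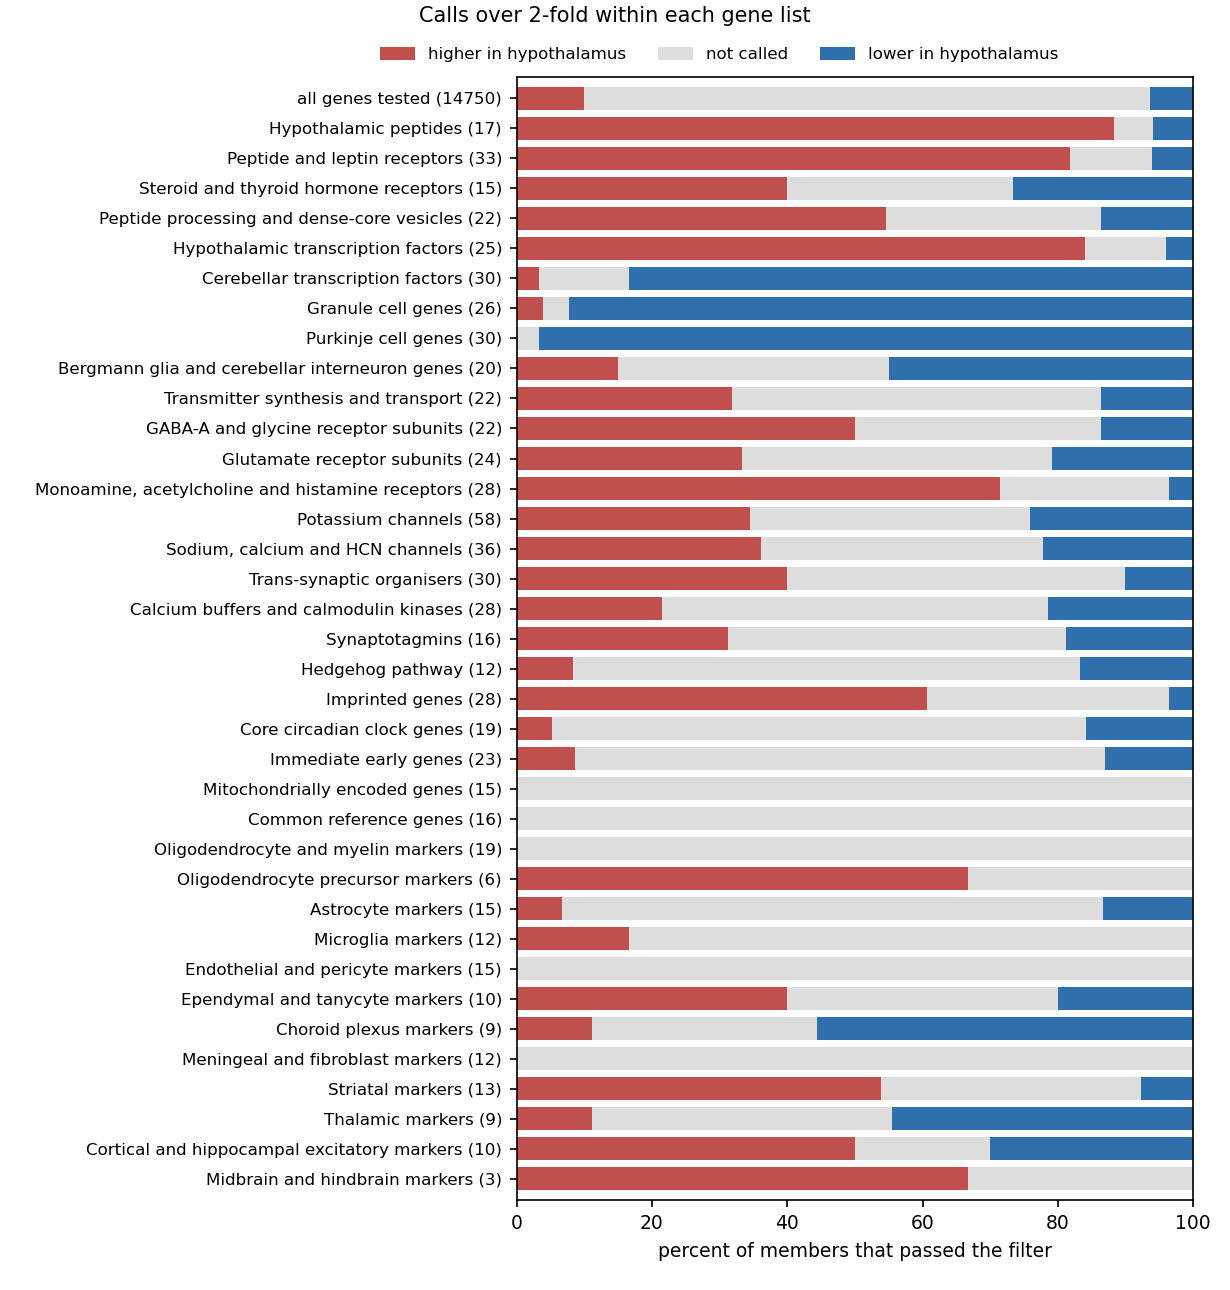
Share of the members of each gene list that passed the filter (number in brackets) and were called higher in the hypothalamus (red), lower (blue) or neither (grey) at over 2-fold; the top bar gives all 14750 genes tested. The lists of peptides, peptide receptors, monoamine receptors and hypothalamic transcription factors are mostly red and the granule and Purkinje cell lists mostly blue, while myelin, endothelial, meningeal, reference and mitochondrial genes are grey throughout.

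The ependymal and tanycyte list, of cells that line the ventricles, had 10 members that passed, with 4 called higher and 2 lower. Beside Gpr50 and Scn7a, Ccdc153, of ciliated ependymal cells, was 3.58-fold and Col23a1, a tanycyte collagen, 3.48-fold higher. Dio2, the deiodinase that activates thyroid hormone in tanycytes and astrocytes, had 9.31, 13.3 and 24.4 CPM in the hypothalamus and 28.9, 34.7 and 48.4 CPM in the cerebellum, 2.68-fold lower. Vim, an intermediate filament gene, was 2.56-fold lower, a call that ended with DESeq2 (adjusted p = 0.074).

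Markers of tissue next to the regions differed between libraries. Choroid plexus, which secretes cerebrospinal fluid, is marked by Ttr, which had 0, 0.365 and 2.22 CPM in the hypothalamus and 9.68, 1077 and 1677 CPM in the cerebellum. The summed choroid plexus list ran over 210.2 to 542.2 CPM in the hypothalamus and 236.7 to 3012 CPM in the cerebellum, lowest in its metestrus 3 library, which also held the lowest Ttr. Of the 9 choroid plexus genes that passed, 5 were called lower, among them Enpp2 by 5.81-fold, F5 by 6.12-fold and Kl by 3.49-fold, and Prlr was called higher. With limma voom, on the same 9 genes, 3 were called lower. Without the estrus 3 and metestrus 3 libraries of the hypothalamus the number called lower was 10. That fit was filtered again and tested more of the list, so this count and the 5 above are not of the same genes. The call of F5 ended with limma voom (adjusted p = 0.23), and that of Kl with limma voom (adjusted p = 0.88) and DESeq2 (adjusted p = 0.18). Folr1, Slc4a5, Aqp1 and Kcne2, defining markers that failed the filter, had medians of 0, 0, 0.364 and 0.212 CPM in the hypothalamus and 9.35, 10.5, 10.3 and 14.3 CPM in the cerebellum. The share of choroid plexus in the calls of Otx2 and Prlr was not tested.

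Striatal genes were highest in 1 hypothalamus library, and so were several other lists. In the estrus 3 library Ppp1r1b, a phosphatase inhibitor of striatal neurons, reached 150.05 CPM against a hypothalamus median of 21.1 CPM. The summed striatal list was 388.4 to 1004 CPM in the hypothalamus, highest in that library, and 368.9 to 467.4 CPM in the cerebellum. The cortical and hippocampal excitatory list summed to 1155 CPM in that library, against a hypothalamus median of 706.9 CPM. The myelin list reached 7371 CPM there, against a median of 4664 CPM. Astrocyte, microglia and reference lists were highest there too, but the endothelial, choroid plexus and meningeal lists were highest in the diestrus 1 library. Of 13 striatal genes that passed, 7 were called higher and 1, Ppp1r1b, lower, against 10% and 6.39% of all genes. Without the estrus 3 and metestrus 3 libraries the log2 difference of Drd1 was 4.50, against 4.76 with them, and its call held. Without the estrus 3 library that of Ppp1r1b was -2.94, against -2.64 with it.

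In the cerebellum, the estrus 2, metestrus 1 and metestrus 2 libraries held more of several forebrain and midbrain genes. Nrgn, a postsynaptic gene of forebrain neurons, had 64.6, 81.3 and 124 CPM in the hypothalamus, and in these cerebellum libraries it had 30.6, 46.6 and 48.9 CPM against a cerebellum median of 5.42 CPM. Tcf7l2, of the thalamus and midbrain, had 15.7, 23.8 and 28 CPM in the hypothalamus, and in the same cerebellum libraries 20.7, 35.8 and 36.6 CPM against a median of 6.9 CPM. In these libraries Baiap3 had 3.82, 9.27 and 10.3 CPM against a cerebellum median of 1.98 CPM. With the 4 cerebellum libraries highest in Nrgn left out, Tcf7l2 was called higher (adjusted p = 4.0e-07, glmTreat). These 4 include the estrus 2, metestrus 1 and metestrus 2 libraries. Leaving them out raises the difference of genes high in them by construction, so the call is a description. The same choice moved the log2 differences of Sst to 4.89, Tac1 to 5.27, Oxt to 11.26, Avp to 11.60, Baiap3 to 7.48, Rxrg to 6.93, Drd2 to 5.31, Cbln2 to 4.79, Slitrk6 to 5.83, Mchr1 to 4.72, Tacr3 to 5.41 and Chrm5 to 6.30, all farther from 0.

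Of 9 thalamic genes that passed, 1 was called higher, Slc17a6, and 4 lower, among them Prkcd, a kinase, by 5.79-fold. The others called lower, Rora, Calb2 and Zic1, also stand in the lists of cerebellar cells or transcription factors above. Of 10 genes of cortical and hippocampal excitatory neurons, 5 were called higher and 3 lower. Neurod6, a factor of these neurons, had 0, 0.36 and 0.889 CPM in the hypothalamus and 4.55, 6.92 and 8.64 CPM in the cerebellum. Of 3 midbrain and hindbrain genes that passed, Th and Sncg were called higher, Sncg by 7.56-fold.

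Pituitary genes, of the gland below the hypothalamus, did not pass the filter. Prl had counts in 3 of 12 hypothalamus libraries, up to 42.4 CPM, and in 4 of 12 cerebellum libraries, up to 2.24 CPM. The summed list was 4.47 to 73.3 CPM in the hypothalamus and 0.827 to 7.45 CPM in the cerebellum. Meningeal genes gave no call among 12, though their sum was 206.4 to 2308 CPM in the hypothalamus, lowest in metestrus 3, and 692 to 1205 CPM in the cerebellum. Most of the mean sum was Ptgds, at 678 CPM per kilobase of exon in the hypothalamus and 461.8 in the cerebellum.

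The regional difference was asked again within each stage. In a fit of 8 groups, 1134 genes (7.69%) were called higher and 776 (5.26%) lower in proestrus, with 3 libraries of each region. In estrus they numbered 1175 (7.97%) and 736 (4.99%), in metestrus 1130 (7.66%) and 753 (5.11%) and in diestrus 1190 (8.07%) and 762 (5.17%). All 2421 genes called over the whole cycle had the same direction in each stage, 1542 of them were called in all 4 stages (912 higher, 630 lower), and 158 in none. The log2 difference of Cbln3 was -8.74, -9.03, -8.84 and -8.64 in proestrus, estrus, metestrus and diestrus, and that of Slc17a7 was -7.49, -7.27, -8.20 and -7.82. Among hypothalamic genes, that of Sst was 4.42, 4.36, 3.08 and 4.69 and that of Pomc 4.69, 6.28, 5.29 and 6.19.

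No gene's regional difference changed with stage at an adjusted p under 0.05 in edgeR's quasi-likelihood test of the interaction, which had 3 degrees of freedom. At an unadjusted p under 0.05 there were 349 genes, 2.37% of those tested. That is a smaller share than the 0.05 looked for where no gene's difference changes with stage. DESeq2 and limma voom also called none, with 249 and 356 genes at an unadjusted p under 0.05. With the metestrus 3 library of the cerebellum left out, edgeR called 5. The genes with the smallest p-values included Skor1, at 0, 0 and 1.04 CPM in the hypothalamus and 11.9, 14.9 and 19.4 CPM in the cerebellum, and Nrgn and Six3os1, whose high cerebellum values came from the 3 libraries named above. Pax2 was among them too, at 0, 0.282 and 2.23 CPM in the hypothalamus and 9.33, 11.6 and 13.3 CPM in the cerebellum, and so was Plk5, at 2.6, 5.13 and 9.17 CPM in the hypothalamus and 38.9, 48 and 53.7 CPM in the cerebellum. A p that misses the threshold does not show that the regional differences were equal over the cycle.

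The neocortex and hippocampus place these genes within the brain. Among the 1478 genes higher in the hypothalamus, the mean log2 level of the neocortex lay nearer to the hypothalamus in 52.0% and that of the hippocampus in 61.5%. Among the 943 lower genes, the neocortex lay nearer to the hypothalamus in 65.9% and the hippocampus in 67.1%. The hippocampus libraries were made with another kit. In a fit of all 47 libraries, which tested 16529 genes, 9.20% were called higher and 6.94% lower in the hypothalamus than in the neocortex, and 6.90% higher and 10.2% lower in the cerebellum than in the neocortex, against 12% higher and 6.50% lower in the hypothalamus than in the cerebellum. Slc17a7, one of the widest gaps here, averaged 1220.1 CPM in the neocortex and 1260.0 CPM in the hippocampus on a common scaling of all libraries, Neurod2 104 and 204 CPM, whereas Gabra6 averaged 0.0104 and 0.173 CPM and Cbln3 2.06 and 3.7 CPM. Of the hypothalamic genes, Camkv averaged 360.0 and 625 CPM and Gabra5 48.4 and 125 CPM there, while Avp averaged 0.249 and 0.426 CPM and Otp 0.0108 and 0.0403 CPM.

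By gene type, 1288 of 13085 protein-coding genes tested were called higher and 863 lower. Of 108 long intergenic noncoding RNAs, 28 were called higher and 9 lower, and of 376 antisense genes 55 and 29, where overlapping genes on the other strand may share counts. The most abundant genes of the hypothalamus included Lars2 and Gm23935, which the annotation types as a microRNA. Lars2 had 11796, 41236 and 207807 CPM in the hypothalamus and 13750.0, 16422 and 40086 CPM in the cerebellum and was not called (log2 difference 1.51 ± 0.37). With the 6 hypothalamus libraries richest in Lars2 left out, that difference was 0.05. Leaving out libraries by their Lars2 level lowers this difference by construction, so the value is a description. Gm23935 had 1890.3, 7069 and 44170.4 CPM in the hypothalamus and 2174, 2687 and 5676 CPM in the cerebellum and was called higher by a narrow margin (adjusted p = 0.047, glmTreat), and its groups overlapped. Its call ended in 13 of 24 fits without 1 library (adjusted p up to 0.19).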

How the data were processed

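RNA-seq of whole dissected brain regions was deposited by the authors as raw read counts per gene, 1 column per library, with 37315 genes and no normalization. Builds GRCm38 and mm10 stand in the submitters' processing notes, which list no role or order for the tools (TopHat2 2.0.8, Trimmomatic 0.32, Cufflinks 2.1.1, DESeq 1.12.1, SAMtools). The counter, annotation release and strand setting behind the counts were not given in the sources used here. Per the labels' protocols, hypothalamus, cerebellum and neocortex libraries were made with one kit and hippocampus libraries with another. Gene types, exon lengths and coordinates came from GENCODE M21, which matched 35533 genes by identifier.

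The 24 libraries of both regions were fitted together with stage and region as terms in edgeR 4.0.16 (R 4.3.3), after filterByExpr by region (minimum count 10, minimum total 15) and TMM scaling. glmTreat tested each difference against 2-fold, the quasi-likelihood F-test tested it against 0 and tested the interaction with stage, and adjusted p-values were Benjamini-Hochberg over all genes tested. A fit of 8 groups gave each stage's difference. Levels of neocortex and hippocampus came from one TMM scaling of all 47 libraries. The method was tested on simulated data. No 2 replicates among 24 pairs held identical counts.

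Genes were named by rule: the 15 widest called differences in each direction among genes with at least 10 CPM in the higher region, up to 4 called members of each list in each direction and up to 2 uncalled ones with the highest level, the 10 smallest interaction p-values and the 10 highest levels in each region. Not every gene the rule covers is printed, and some genes are not reported here. Further list members are named to account for a family and were chosen after their values were seen. The gene lists and members were chosen with earlier results of these data known. The alternatives were other scalings, filters, tools (DESeq2 1.42.0, limma 3.58.1) and fold limits, a replicate block, and leaving out libraries; those that leave out libraries by their Lars2 or Nrgn level were chosen after seeing the data.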

Additional observations from a re-analysis of the deposited data

How the results depend on the processing

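No gene called in either direction was called in the opposite one under any of the alternatives. The counts of genes called higher and lower were 1518 and 914 with RLE factors, 1573 and 882 with upper quartile factors, 1317 and 971 with library size only, 1344 and 824 with DESeq2, 1330 and 869 with limma voom, 1976 and 1075 with all 47 libraries in the fit, and 2007 and 1102 with the filter by region and stage. They were 2975 and 1293 with no filter on low counts, which tested 25110 genes, 2519 and 1880 at a limit of 1.5-fold and 604 and 349 at 4-fold. Leaving out each library in turn gave 1460 to 1586 higher and 936 to 974 lower, and leaving out the 6 hypothalamus libraries richest in Lars2 gave 1578 and 986. These fits were filtered again. They tested 14806 to 14941 genes without 1 library and 15351 without the 6, against 14750 in the main fit. Of the 1478 higher and 943 lower calls of the main fit, 1341 and 896 were shared by the fit without the 6. The stage-wise counts stayed within 1.5 times of their values under every alternative run for them. The interaction with stage gave 60 genes with no filter, 5 without the metestrus 3 library of the cerebellum, and 0 with RLE factors, the filter by region and stage, DESeq2, limma voom, without the estrus 3 and metestrus 3 libraries of the hypothalamus and without each other library, with 282 to 487 genes at an unadjusted p under 0.05 over the fits that left out 1 library. The cause of these changes was not tested.

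Libraries of the regions with the same stage and number did not deviate together: over 12 pairs the correlation of their deviations from the group means ran from -0.291 to 0.22, was over 0.1 in 2, and 1 of 12 correlated best with its own number. Such deviations, from means of 3 libraries, also carry differences between libraries such as the Lars2 share. They cannot decide whether the same number marks the same mouse. Within each stage the ages by number were the same in both regions. A replicate block gave 1472 higher and 934 lower, and 0 interactions. Of 248 genes named in the text, 13 lost their call under at least 1 alternative other than the fold limits (C1ql1, Cck, Cry1, Dner, F5, Gm23935, Kl, Nefh, Nxph1, Prlr, Siglech, Sik1 and Vim), 4 gained one (Htr5a, Lars2, Scn2b and Tcf7l2), and none changed direction. Of 76 list counts under 39 alternatives (2964 values), 120 moved by over 1.5 times: 50 with the fold limits, 15 with no filter and 55 with the others. Of these 55, 5 concerned a count of 5 or more, all of the choroid plexus genes called lower. These numbered 11 with the filter by region and stage and with all 47 libraries. They numbered 10 without the estrus 3 and metestrus 3 or the 6 Lars2-rich libraries of the hypothalamus, and 3 with limma voom. The fits with 10 and 11 had another filter or were filtered again, and tested more of the list than the main fit. The depth, 1826368 counts in the smallest library, limits what can be said of genes below about 1.99 CPM on library totals, among them most of the peptides that did not pass the filter.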
